A study of Rattus norvegicus with 12 samples.

Results

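The 10 genes described here, Gp2, Grifin, Cpa1, Retsat, Cpxm2, Mlip, Scn7a, Kazald1, Pcdh20 and Hey2, were selected on their falls under 17β-estradiol (E2) in the rat mammary gland, among the largest of this series outside genes of fat, mast cells and collagen. They were measured by 12 of 31099 probe sets, and they are 10 of the 14217 genes that could be named. The measured E2 changes therefore chose the genes, and those changes are given below as a description with no test. The tissue was the abdominal mammary gland pair of female Sprague-Dawley rats at postnatal day 64, and its RNA was hybridised to Affymetrix rat arrays. Every rat had lost its ovaries at postnatal day 50 and then carried, for 14 days, a mini-osmotic pump with E2 or vehicle. There were 4 groups, casein plus E2 and casein, fed the milk protein casein, and soy plus E2 and soy, fed soy protein isolate, which carries isoflavones. Diets began at postnatal day 30, and each group had 3 arrays, each of a pool of RNA.

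The values are log2 values centred on the median of each probe set, so they show differences between arrays and no level of expression. Neither the presence of a transcript nor the identity of the tissue could be checked from them. The source label of every sample names mammary gland, and a description field names hepatic expression. The values of casein plus E2 pools 2 and 3 differed very little, with an SD of the difference of 0.163 over 31099 probe sets, against 0.301 or more in every other pair of arrays. They were averaged and counted as 1 sample, so casein plus E2 has n = 2 and each other group n = 3. Liver transcripts stood out in casein pool 3, and skeletal muscle transcripts in casein pool 2 and soy pool 2. The number of arrays limits the precision, and nothing in the labels says how many animals a pool held or whether pools shared any, so the p-values given here reflect pool-to-pool spread, which may be technical. The RNA was of whole glands, in which fewer cells of a type and less RNA per cell cannot be told apart.

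E2 acts through nuclear estrogen receptors, which bind DNA at palindromic response elements or act through other factors, and in the mammary gland it drives the growth of epithelial ducts into the fat pad. The pad around the ducts holds adipocytes, fibroblasts, vessels, nerves and mast cells. The 10 genes have diverse roles. Gp2 encodes the main membrane glycoprotein of pancreatic zymogen granules, and Cpa1 the digestive carboxypeptidase A1. Cpxm2 encodes a secreted relative of the carboxypeptidases for which no enzyme activity is established, and Kazald1 a secreted protein related to the insulin-like growth factor binding proteins. Grifin encodes a galectin-related protein known from the lens. Retsat encodes retinol saturase, an enzyme of vitamin A metabolism that is abundant in fat and liver. Scn7a encodes an atypical sodium channel that senses extracellular sodium and is known from glia and Schwann cells. Mlip encodes a lamin-interacting protein of heart and skeletal muscle, Pcdh20 a cell adhesion protein of the protocadherins, and Hey2 a transcriptional repressor switched on by Notch signalling.

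The promoter windows of the 3 genes that hold an arm of the palindromic estrogen response element are shown, since Gp2 and Grifin had the lowest values under E2 and Retsat was among the lowest in soy-fed rats. Each window runs from 250 bases before to 50 after the start of the gene (RefSeq, GRCr8), 5′ to 3′ on the strand of the gene, with the letters GGTCA or its reverse complement TGACC in capitals. They lie at chr1:183243905-183244204 (Gp2, minus strand), chr12:19194579-19194878 (Grifin, plus strand) and chr4:106211209-106211508 (Retsat, plus strand).
Gp2: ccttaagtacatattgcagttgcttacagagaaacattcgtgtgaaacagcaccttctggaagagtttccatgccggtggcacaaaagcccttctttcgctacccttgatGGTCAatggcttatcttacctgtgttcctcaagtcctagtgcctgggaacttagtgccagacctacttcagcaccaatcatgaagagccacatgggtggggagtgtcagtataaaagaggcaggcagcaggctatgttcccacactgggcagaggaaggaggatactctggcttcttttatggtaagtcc
Grifin: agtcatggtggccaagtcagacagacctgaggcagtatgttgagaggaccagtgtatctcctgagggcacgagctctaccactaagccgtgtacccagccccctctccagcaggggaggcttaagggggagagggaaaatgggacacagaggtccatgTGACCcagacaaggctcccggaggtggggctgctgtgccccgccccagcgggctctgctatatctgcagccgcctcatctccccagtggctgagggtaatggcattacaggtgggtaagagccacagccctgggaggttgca
Retsat: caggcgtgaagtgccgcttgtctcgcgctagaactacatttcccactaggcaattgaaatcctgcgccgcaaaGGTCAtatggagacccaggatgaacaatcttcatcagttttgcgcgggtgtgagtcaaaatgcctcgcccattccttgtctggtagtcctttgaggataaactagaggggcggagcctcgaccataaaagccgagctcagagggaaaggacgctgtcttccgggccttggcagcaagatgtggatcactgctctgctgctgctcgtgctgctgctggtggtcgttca
Counted from the start of the gene, the match began at -140 in Gp2, -92 in Grifin and -177 in Retsat. Windows were found for 9 of the 10 genes, all but Mlip, and 3 of the 9 held this arm on either strand, against 40.5% of 33469 windows of this length in the genome. The full palindrome GGTCANNNTGACC was in 0 of the 9 and in 0.0269% of all windows. A match is a run of letters and not a binding site, and these windows cover only the bases next to the start. The Gp2 window also held the letters TATAAA, from -31, which 14.2% of all windows held on either strand.

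Gp2 and Cpa1, known from the pancreas, Grifin, known from the lens, and the retinoid enzyme gene Retsat were lower with E2 in both diets. Gp2 stood at -0.45 and -2.41 in the casein plus E2 samples, against 2.37, 1.55 and 0.30 in casein. In soy plus E2 it stood at -2.41, -0.19 and -0.65, against 1.42, 1.04 and 0.19 in soy. The samples did not overlap in either diet, but the spread within each group was wide, with an SD of 0.63 to 1.39. Averaged over the diets Gp2 was lower by 2.40 on the log2 scale (-2.40 ± 0.55, standard error of the fit), or 5.29-fold, the 8th lowest change of the 14217 genes.

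Grifin stood at -1.48 and -0.53 in casein plus E2, against 0.75, 1.69 and 0.96 in casein. It stood at -2.24, -2.08 and -0.38 in soy plus E2, against 1.54, 0.38 and 0.95 in soy. Every sample with E2 lay below every sample without it, and soy plus E2 pool 3 lay closest to the samples without E2. The average change was -2.33 ± 0.38, or 5.02-fold lower.

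Cpa1 stood at -0.83 and -0.23 in casein plus E2, against 0.81, 1.04 and 0.90 in casein. Its values were -1.81, -1.14 and -1.09 in soy plus E2, against 0.74, 0.22 and 0.99 in soy. These ranges were apart in both diets, and the average change of Cpa1 was -1.72 ± 0.19, or 3.31-fold lower. Retsat stood at -1.31 and -0.24 in casein plus E2, against 0.57, 0.56 and 0.22 in casein. Its values were -2.04, -1.94 and -0.98 in soy plus E2, against 0.84, 0.19 and 0.50 in soy. The average change of Retsat was -1.69 ± 0.25, or 3.23-fold lower. In casein-fed rats the size of the change depended on 1 sample, at -1.22 ± 0.37 with all samples and -0.68 without casein plus E2 pool 1. The other casein plus E2 sample, at -0.24, still lay below every casein sample. The change of Gp2 in soy-fed rats was likewise -1.97 ± 0.73 with all samples and -1.30 without soy plus E2 pool 1.

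**Figure D1:**
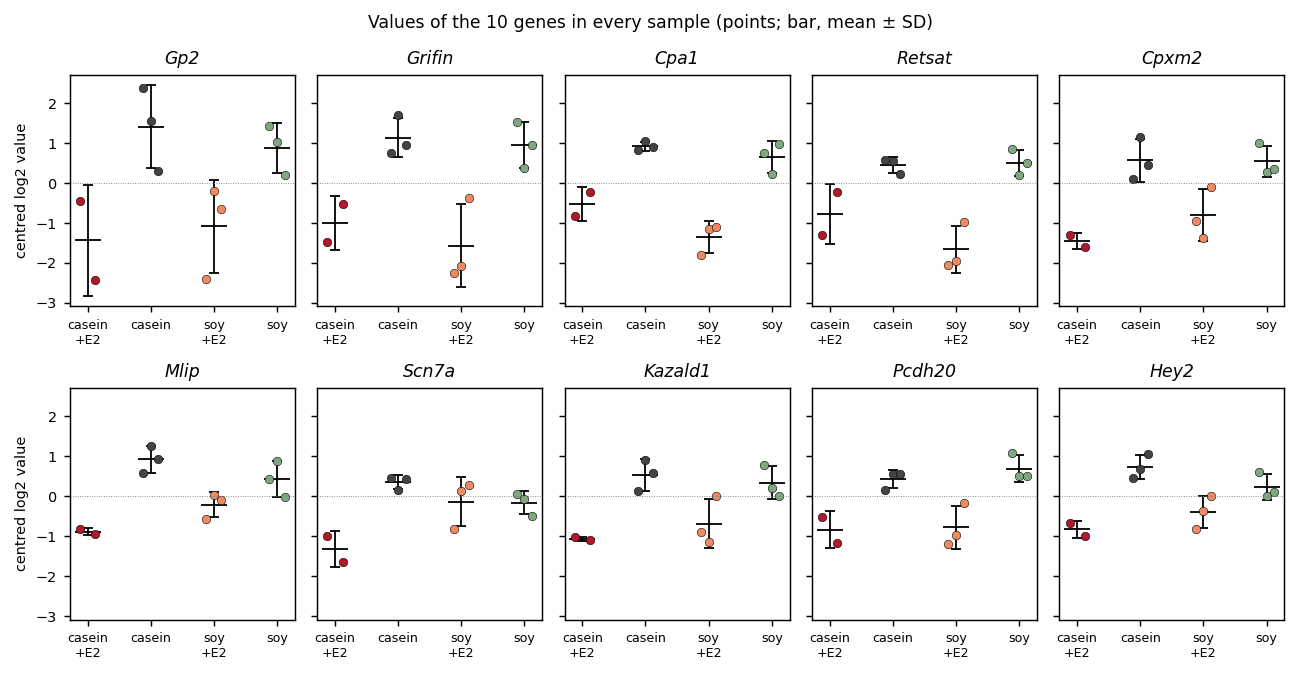
Centred log2 values of the 10 genes (vertical axis) in the casein plus E2, casein, soy plus E2 and soy groups; points are samples and bars the mean ± SD, with n = 2 for casein plus E2, where pools 2 and 3 are averaged, and n = 3 for the others. The points with E2 lie below those without in both diets for 7 genes, while the soy plus E2 and soy points of Scn7a overlap widely and those of Mlip and Kazald1 narrowly.

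The secreted and surface proteins Cpxm2, Kazald1 and Pcdh20 were also lower with E2 in both diets. Cpxm2 stood at -1.31 and -1.60 in casein plus E2, against 0.10, 1.16 and 0.45 in casein. Its soy plus E2 values were -0.94, -1.38 and -0.10, against 0.99, 0.28 and 0.35 in soy. The groups did not overlap, and its 2 probe sets gave average changes of -1.78 and -1.59. Kazald1 stood at -1.03 and -1.09 in casein plus E2, against 0.13, 0.91 and 0.58 in casein. In soy plus E2 it stood at -0.89, -1.15 and 0.0008, against 0.80, 0.22 and -0.0008 in soy. Soy plus E2 pool 3 and soy pool 3 were level for this gene, so the soy groups met at that point. Pcdh20 stood at -0.51 and -1.15 in casein plus E2, against 0.16, 0.56 and 0.55 in casein. Its soy plus E2 values were -1.19, -0.97 and -0.16, against 1.08, 0.50 and 0.50 in soy. The groups of Pcdh20 were apart, and its 2 probe sets gave -1.34 and -1.39. Averaged over the diets Cpxm2 was lower by 3.22-fold (-1.69 ± 0.27), Pcdh20 by 2.57-fold (-1.36 ± 0.21) and Kazald1 by 2.48-fold (-1.31 ± 0.24).

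For Scn7a, Mlip and Hey2 the changes with E2 were lower in casein-fed than in soy-fed rats. This difference did not pass its own test, the diet by E2 interaction. It was not particular to them, since Gp2 (-2.84 and -1.97), Cpxm2 (-2.02 and -1.35) and Kazald1 (-1.60 and -1.02) also had the lower change in casein-fed rats. Grifin, Cpa1, Retsat and Pcdh20 had the lower change in soy-fed rats. Scn7a stood at -1.003 and -1.63 in casein plus E2, against 0.47, 0.16 and 0.44 in casein. In soy plus E2 it stood at -0.82, 0.14 and 0.29, against 0.06, -0.06 and -0.49 in soy. Scn7a was thus separate between the casein groups and overlapped between the soy groups, with changes of -1.67 ± 0.32 in casein-fed and 0.03 ± 0.29 in soy-fed rats. Mlip stood at -0.83 and -0.94 in casein plus E2, against 0.58, 1.27 and 0.93 in casein. Its soy plus E2 values were -0.56, 0.02 and -0.10, against 0.44, 0.88 and -0.02 in soy. The soy groups of Mlip overlapped by 1 sample each, and the changes were -1.81 ± 0.28 in casein-fed and -0.65 ± 0.25 in soy-fed rats. Hey2 stood at -0.67 and -0.98 in casein plus E2, against 0.46, 0.67 and 1.05 in casein. In soy plus E2 it stood at -0.81, -0.38 and -0.0015, against 0.60, 0.0015 and 0.11 in soy. The soy groups of Hey2 were apart only by the distance between 2 values next to 0, and the changes were -1.56 ± 0.27 in casein-fed and -0.63 ± 0.24 in soy-fed rats.

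The highest Mlip value of the casein group (1.27) and of the soy group (0.88) was in pool 2, the pools with the highest skeletal muscle score (1.62 in casein pool 2 and 1.71 in soy pool 2, mean of scaled values of 17 muscle genes, against 0.71 or less on the other arrays). Without these 2 pools Mlip changed by -1.03 on average over the diets and by -0.42 in soy-fed rats, against -1.23 ± 0.19 and -0.65 ± 0.25 with them. With array weights the change in soy-fed rats was -0.97.

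Among the 10 genes the median change with E2 was -1.64 in casein-fed and -1.41 in soy-fed rats, where the median over all 14217 genes was 0.02 and -0.0025. Averaged over the diets it was -1.52, against 0.0042 over all genes. These 3 medians describe the choice of the genes. All E2 samples lay below all samples without E2 for 7 of the 10 genes, which was so for 2.62% of all genes. Within casein-fed rats this held for 10 of 10 genes and for 17.3% of all genes, and within soy-fed rats for 7 of 10 and for 12% of all genes. The choice rule has no stated cut-off, and 8 of the 10 were among the 100 lowest average changes, while Hey2 ranked 135 and Scn7a 336. The mean over the 10 genes was -0.94 and -1.08 in the casein plus E2 samples, against 0.64, 0.96 and 0.64 in casein. It was -1.37, -0.91 and -0.32 in soy plus E2, against 0.85, 0.37 and 0.31 in soy, so soy plus E2 pool 3 was the E2 sample nearest to those without E2.

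**Figure D2:**
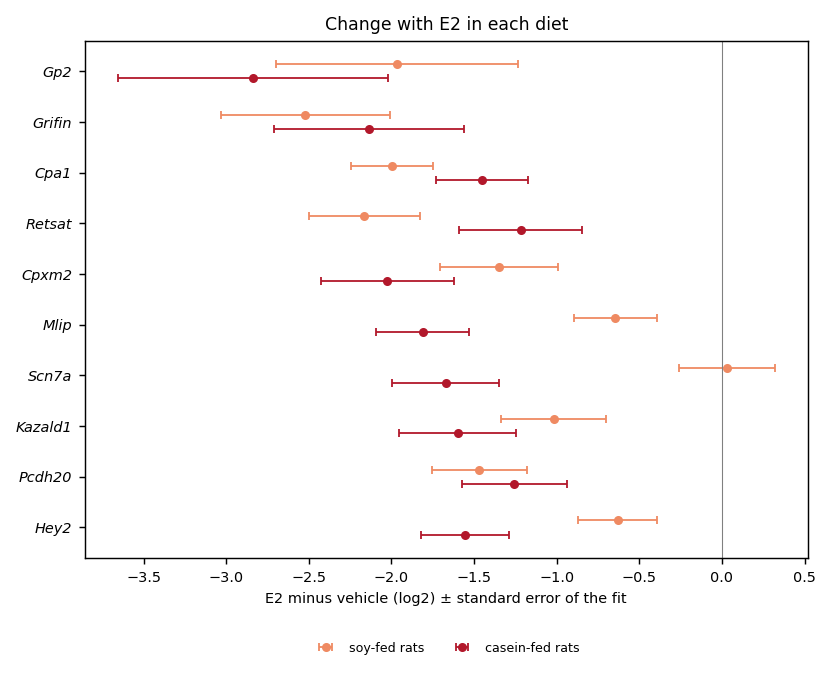
Change with E2 (E2 minus vehicle, log2, horizontal axis) of each of the 10 genes in soy-fed and casein-fed rats, with the standard error of the fit as bars. Retsat, Cpa1, Grifin and Pcdh20 lie further left in soy-fed rats, and Scn7a, at 0.03 in soy-fed and -1.67 in casein-fed rats, has the widest distance between the diets.

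The difference between diets was not used to choose the genes, and the average over both E2 levels is the diet comparison least tied to that choice. Soy shifted 0 of the 10 genes past the test when averaged over E2 (limma across all genes, Benjamini-Hochberg adjusted p under 0.05), and 0% of all genes passed. At an unadjusted p under 0.05 there was 1 of 10 genes, Cpa1, against 7.07% of all genes. Cpa1 differed by -0.54 ± 0.19 (soy minus casein, 95% interval -0.96 to -0.13), with an adjusted p = 0.68. The other 9 differences lay between -0.41 for Retsat, which had -0.68 without casein plus E2 pool 1, and 0.33 for Scn7a. Their intervals were wide, for Gp2 from -1.32 to 1.14, so differences of more than 2-fold between diets cannot be told from none for that gene.

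Without E2, 0 of the 10 genes passed the test between soy and casein, and 0% of all genes did. The count over all genes was not stable, at 1588 with array weights and 327 without soy pool 1, with 0 of the 10 among them in both. An unadjusted p under 0.05 was reached by 0 of the 10 and by 10.4% of all genes. The differences ran from -0.53 ± 0.73 for Gp2 to 0.27 ± 0.29 for Pcdh20. For Retsat, the difference of 0.06 had a 95% interval of -0.69 to 0.81. Under E2, 0 of 10 passed and 0.00703% of all genes, that is 1 gene, did. An unadjusted p under 0.05 was reached by 4 of 10, against 5.1% of all genes. Scn7a was higher by 1.18 ± 0.32 in soy plus E2 than in casein plus E2 (adjusted p = 0.63) and Mlip by 0.67 ± 0.28 (adjusted p = 0.956). Retsat differed by -0.88 ± 0.37 (adjusted p = 0.97), or by -1.42 without casein plus E2 pool 1, and Cpa1 by -0.82 ± 0.28 (adjusted p = 0.822). These differences did not pass, and they share the E2 samples with the changes that chose the genes.

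Whether the change with E2 differed between diets was asked with the diet by E2 interaction, the E2 change in soy-fed minus that in casein-fed rats. It passed for 0 of the 10 genes and for 0% of all genes, and an unadjusted p under 0.05 was reached by 3 of the 10 against 6.53% of all genes. The 3 were Scn7a at 1.70 ± 0.43 (95% interval 0.73 to 2.68, adjusted p = 0.543), Mlip at 1.17 ± 0.38 (adjusted p = 0.616) and Hey2 at 0.92 ± 0.36 (adjusted p = 0.736). With array weights the value of Mlip was 0.65. On the other side Retsat had -0.94 ± 0.50 (adjusted p = 0.789) and Cpa1 -0.55 ± 0.37 (adjusted p = 0.817). Single arrays moved both, to -1.48 for Retsat and -0.84 for Cpa1 without casein plus E2 pool 1, and to -0.32 for Cpa1 without soy plus E2 pool 1. The rule does not say in which diet the falls were taken, and the interaction shares its samples with the changes that chose the genes. The intervals of Grifin, from -2.11 to 1.34, and Pcdh20, from -1.17 to 0.75, include 0 and do not show that the diets were alike.

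**Figure D3:**
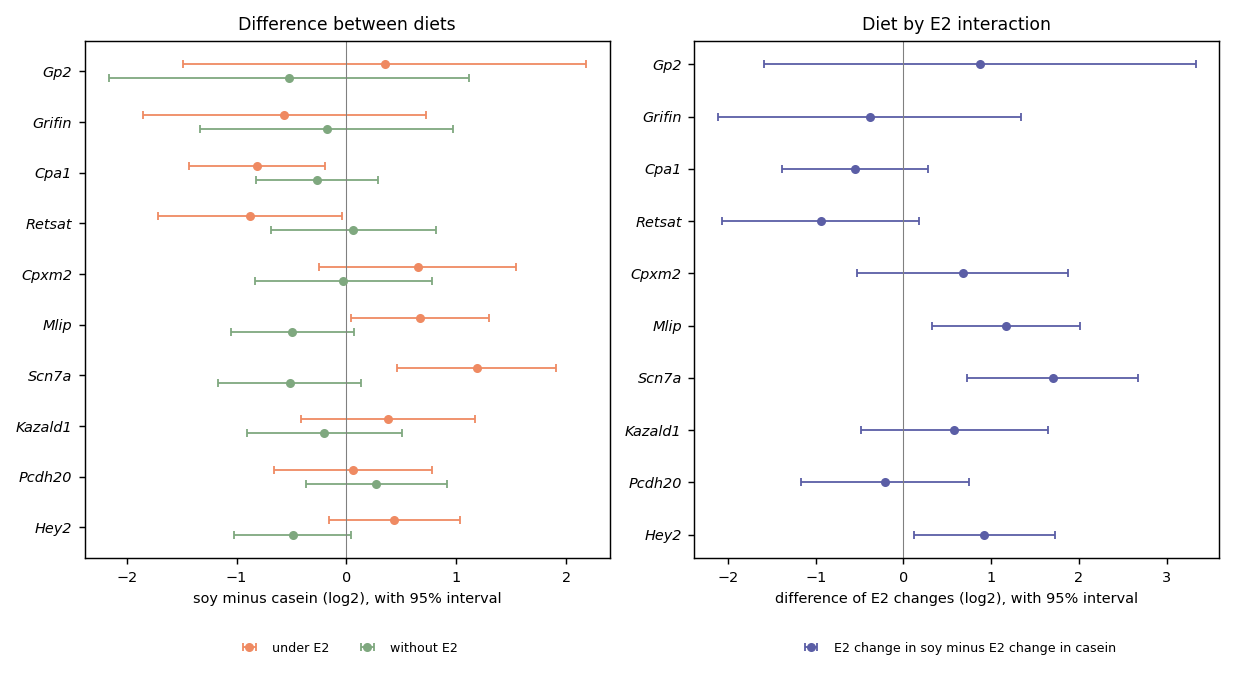
Left, soy minus casein (log2) for each of the 10 genes under E2 and without E2; right, the E2 change in soy-fed minus that in casein-fed rats; points are estimates and bars their unadjusted 95% intervals. Scn7a has the highest interaction, 1.70, and Retsat the lowest, -0.94, and no gene passed the test after adjustment over 14217 genes.

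Within groups the 10 genes had their highest correlations with different lists of cell type markers, none of which passed after adjustment for the number of relations. With each group mean taken out, the 11 samples give the deviations of a pool from its own group, which the choice of genes did not use. Grifin and Retsat correlated with the score of 18 adipocyte genes, with r = 0.93 and rho = 0.87 for Grifin (exact permutation within groups, p = 0.00694 and 0.00463) and r = 0.88 and rho = 0.85 for Retsat (exact p = 0.00463 for both). Pcdh20, Cpxm2 and Kazald1 correlated with the score of 16 fibroblast genes. Pcdh20 had r = 0.94 and rho = 0.95 (exact p = 0.00694 and 0.0116), and Cpxm2 r = 0.84 and rho = 0.78 (exact p = 0.00463 and 0.00694). Kazald1 had r = 0.79 and rho = 0.78 (exact p = 0.00231 for both). These genes were not tied to the fibroblast score alone. With the mast cell score r was 0.89 for Pcdh20, 0.67 for Cpxm2 and 0.75 for Kazald1. With the adipocyte score r was 0.56, 0.68 and 0.69 in the same order. Scn7a correlated with the smooth muscle and pericyte score, with r = 0.88 and rho = 0.84 (exact p = 0.0394 and 0.0255). It also had r = 0.84 with the endothelial score and r = 0.79 with the Schwann cell and nerve score. Gp2 correlated with the Schwann cell and nerve score, with r = 0.84 and rho = 0.84 (exact p = 0.0278 and 0.0185). Averaged over the diets, 4 of 12 genes of this list were called lower with E2 and 4 higher (limma). Its score may therefore not follow a single cell type. The correlations above were computed again without the 2 samples farthest from the median of the score. For the highest list of each gene, r was then 0.86 for Grifin, 0.81 for Retsat, 0.89 for Pcdh20 and 0.82 for Cpxm2. It was 0.78 for Kazald1, 0.68 for Scn7a and 0.88 for Gp2. For Scn7a it was 0.77 with the Schwann cell and nerve score and 0.55 with the endothelial score.

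These were among 120 relations, the 10 genes against 12 marker lists, and 0 of the 120 passed after adjustment (smallest adjusted p = 0.167, exact permutation, two-sided), while 14 had an unadjusted p under 0.05. The 432 arrangements within groups allow no p below 0.00231, so a single relation among 120 could not pass. Mlip and the skeletal muscle score had r = 0.61 and rho = 0.57 (exact permutation p = 0.262 and 0.178), and r was 0.12 without the 2 samples farthest from the median, so that relation rests on those samples. With a score of 17 other pancreatic acinar genes r was 0.27 for Gp2 and -0.04 for Cpa1. Cpa1 had r = 0.05 with the fibroblast score and Retsat 0.21, so a stromal label in the sense of fibroblasts was not borne out by these values for them. The highest r of Cpa1 was with the adipocyte score (0.69), that of Hey2 with the mast cell score (0.79) and that of Mlip with the endothelial score (0.72).

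**Figure D4:**
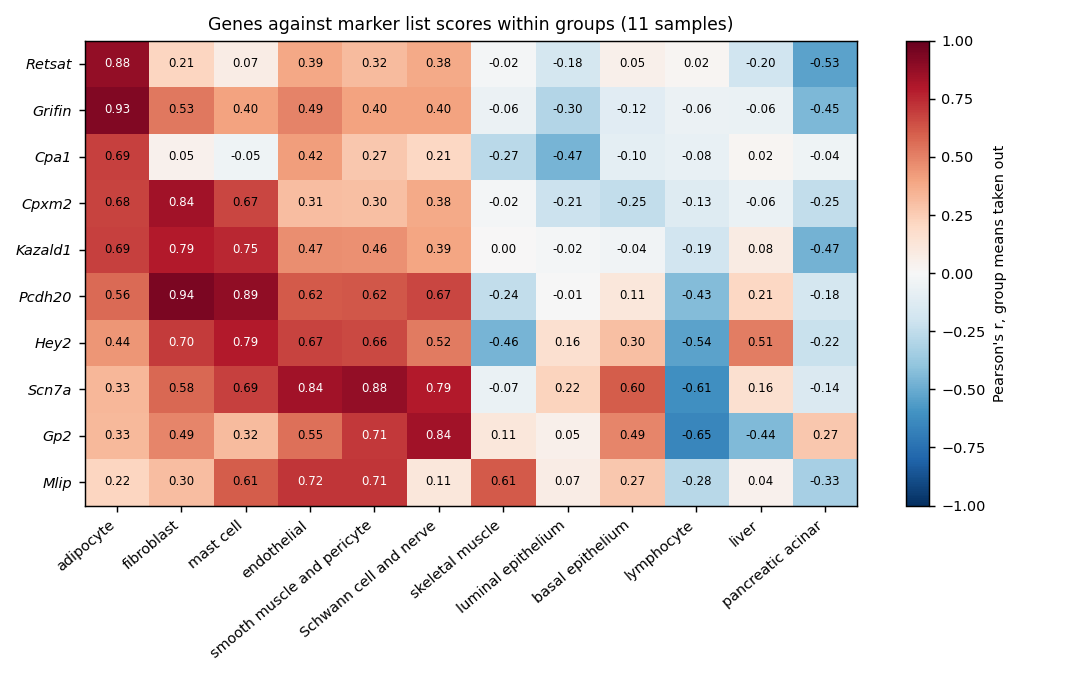
Pearson's r (colour and number) of each of the 10 genes (rows) with the score of 12 marker gene lists (columns) over 11 samples, group means taken out and the 10 genes left out of the lists. Retsat and Grifin are highest for adipocyte genes, at 0.88 and 0.93, Pcdh20 and Cpxm2 for fibroblast genes, at 0.94 and 0.84, and Scn7a for smooth muscle and pericyte genes, at 0.88.

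Among the 45 pairs of the 10 genes, r within groups was above 0 in 43, with a median of 0.37 and a range of -0.08 to 0.96. The closest pair was Cpxm2 and Kazald1 (r = 0.96, rho = 0.94, exact permutation p = 0.00463 for both, and r = 0.92 without the 2 farthest samples), followed by Grifin and Retsat (r = 0.89, rho = 0.85, exact p = 0.0139 for both) and Pcdh20 and Hey2 (r = 0.89, rho = 0.85, exact p = 0.00926 and 0.0162). After adjustment over the 45 pairs 0 passed (smallest adjusted p = 0.156). Over the values as they stand, in which the E2 difference dominates, the gene outside the 10 most like each was Daam2 for Gp2 (r = 0.95, and 0.95 within groups), Rgs7 for Grifin (0.98 and 0.94), Cetn4 for Cpa1 (0.94 and 0.65), Sfxn1 for Retsat (0.98 and 0.97) and C1qtnf6 for Cpxm2 (0.98 and 0.95). For the others it was Gata2 for Mlip (0.99 and 0.92), Pkig for Scn7a (0.97 and 0.92), Grb10 for Kazald1 (0.98 and 0.97), Smpd3 for Pcdh20 (0.99 and 0.97) and Depp1 for Hey2 (0.97 and 0.86). Next came Gng11 and Osbpl6 for Gp2, Ctbs and Hebp1 for Grifin, Csgalnact1 and Maoa for Cpa1, Rgs7 and Enpp5 for Retsat, and Itgbl1 and Pdlim1 for Cpxm2. For the rest they were Npy1r and Casq2 for Mlip, Mmrn2 and Bcl6b for Scn7a, Vnn1 and Nol3 for Kazald1, Clec2l and the mast cell protease gene Mcpt1l1 for Pcdh20, and Jam2 and Stac for Hey2. These genes were picked as the highest over all genes and carry no p.

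The marker genes of several cell types moved with E2 as well. In this paragraph, genes that fell or rose are those called lower or higher averaged over the diets (limma, adjusted p under 0.05). Whatever the test, 48.9% of all genes had a change below 0. Of 18 adipocyte genes 12 fell, of 16 fibroblast genes 10 and of 10 mast cell genes 9. Of 12 endothelial genes 5 fell, and of 13 smooth muscle and pericyte genes 5, where 5.51% of all genes fell. In contrast, 7 of 14 luminal and 6 of 10 basal epithelial genes rose, against 6.73% of all genes. These counts depended on single arrays. Leaving out casein plus E2 pool 1 leaves 1 sample in that group, so fewer calls there cannot be told apart from fewer samples. Leaving out its pool 2 or 3 keeps 11 samples, since these pools count as 1 sample. All genes called numbered 1741, against 313 without casein plus E2 pool 1, 642 and 640 without pool 1 or pool 2 of soy plus E2, 899 and 1123 without pool 2 of casein or of soy, and 247 without these pools 2 together. With 1 array left out, the adipocyte genes that fell numbered 0 to 16, and 5 or fewer without any single one of casein pools 1 and 2, casein plus E2 pool 1, the 3 soy pools and soy plus E2 pools 1 and 2. The fibroblast genes that fell numbered 1 to 10, with 1 without pool 1 or pool 2 of soy plus E2 and 4 without casein plus E2 pool 1, and the endothelial genes 0 to 8, with 0 without casein plus E2 pool 1. The luminal genes that rose numbered 2 to 8 and the basal genes 0 to 7, both lowest without casein plus E2 pool 1, while 8 or 9 of the 10 mast cell genes fell whichever array was left out. Without casein pool 2 and soy pool 2 together 0 adipocyte, 1 fibroblast and 2 mast cell genes were called lower. Over all genes 68 were called lower in that setting, against 784 with all samples. A lost call does not show that a gene was no longer lower. The adipocyte score lay between -1.02 and -0.28 in casein plus E2, against 0.08 to 1.33 in casein, and between -1.68 and 0.26 in soy plus E2, against 0.12 to 1.03 in soy. The fibroblast score lay between -1.39 and 0.0026 in casein plus E2, against 0.07 to 0.76 in casein, and between -1.12 and 0.22 in soy plus E2, against 0.53 to 1.28 in soy. The endothelial score lay between -1.24 and -1.23 in casein plus E2, against 0.63 to 0.88 in casein, while the soy groups overlapped, at -1.01 to 0.44 in soy plus E2 against -0.19 to 0.36 in soy. Of the skeletal muscle, liver and lymphocyte lists 0 of 17, 0 of 15 and 0 of 10 genes passed in limma. An unadjusted p under 0.05 was reached by 5, 1 and 0 of them, against 29% of all genes. The median change was nevertheless -1.66 for the muscle list and -1.09 for the liver list, and 0.37 for the lymphocyte list. Every muscle and liver gene measured changed below 0, the highest at -0.33 and -0.34. Muscle transcripts stood out in casein pool 2 and soy pool 2, and liver transcripts in casein pool 3. Array weights gave 15 lower muscle genes, where 10.8% of all genes were called lower in that setting. The part of these cell types in the lower values of the 10 genes was not tested.

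Most other genes of the families of the 10 did not pass the test for E2. Of 121 other genes measured in 8 families, 16 fell and 5 rose (limma, adjusted p under 0.05, averaged over the diets), or 13.2% and 4.13%, beside 5.51% and 6.73% of all genes. Their median change was -0.07. Among 12 other metallocarboxypeptidases, the family of Cpa1 and Cpxm2, 4 fell and 1 rose. The mast cell carboxypeptidase gene Cpa3 fell by 2.17, Cpz by 1.10 and Cpxm1, a relative of Cpxm2, by 0.92 on the log2 scale. Cpm, a membrane-bound carboxypeptidase gene, rose by 0.43 ± 0.08 (adjusted p = 0.0155). The pancreatic list, in which Gp2 and Cpa1 belong, had 0 of 17 others lower and 1 higher, the bile salt lipase gene Cel (0.75 ± 0.17, adjusted p = 0.0247), with a median of 0.02. Cel did not pass without casein pool 2, casein plus E2 pool 1, or pool 1 or pool 2 of soy plus E2.

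Among 24 other genes of retinoid metabolism and its receptors 5 fell and 2 rose. The retinol carrier gene Rbp4 fell by 1.51, the retinoic acid receptor gene Rarb by 1.11 (-1.11 ± 0.14, adjusted p = 0.00487) and the retinoid X receptor gene Rxrg by 0.46. Crabp2, which carries retinoic acid to the nucleus, rose by 1.97 ± 0.29 (adjusted p = 0.00758), and the retinol uptake receptor gene Stra6 rose by 0.77 ± 0.16. Rarb and Crabp2 were the relatives called in all 22 alternative settings. Of 27 other Notch pathway genes 3 fell, the ligand genes Jag1 by 0.70 and Dll4 by 0.43 and the Notch-modifying enzyme gene Mfng by 0.51. The remaining 24, receptors and other Hes and Hey repressors among them, did not pass, and the family had a median of -0.05.

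Of 16 other genes in the insulin-like growth factor binding protein list of Kazald1, 2 fell and 1 rose, Igfbp3 lower by 1.70 (-1.70 ± 0.35), the secreted protease gene Htra1 lower by 0.70 (-0.70 ± 0.19) and Igfbp2 higher by 0.96 ± 0.21. Of 9 other galectins Lgals12, a galectin of adipocytes, fell by 0.91 and Lgals7, known from stratified epithelium, rose by 1.30. Pcdh10 fell by 1.79 among 7 other non-clustered protocadherins. No other sodium channel (0 of 12) or lamin and nuclear envelope partner (0 of 14) was called in limma. The gene of smallest p was Scn3b among the channels (-0.22 ± 0.07, adjusted p = 0.0819) and Syne3 among the partners (0.34 ± 0.11, adjusted p = 0.0736). An unadjusted p under 0.05 was reached by 1 of 12 and 2 of 14, against 29% of all genes. The number of relatives called depended on single arrays and was 21 with all samples. Leaving out casein plus E2 pool 1 gave 6, leaving out pool 2 of soy plus E2 gave 11 and leaving out its pool 1 gave 12. Leaving out casein pool 2 and soy pool 2 together gave 2. The sign of all 21 changes was the same in every alternative.

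**Figure D5:**
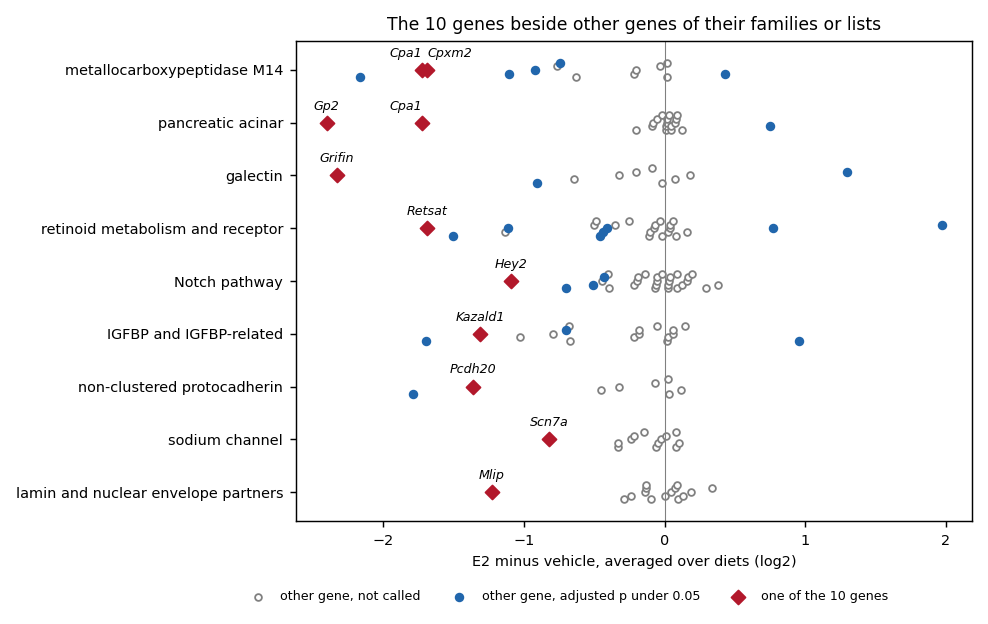
Change with E2 averaged over the diets (log2, horizontal axis) for the 10 genes (red diamonds) and the other genes of their families or lists (circles, filled where the adjusted p was under 0.05). Gp2 and Cpa1, at -2.40 and -1.72, lie left of all 17 other pancreatic genes, whereas in their families Cpa1 and Cpxm2 (-1.69) have Cpa3 (-2.17) further left, Pcdh20 (-1.36) has Pcdh10 (-1.79) and Kazald1 (-1.31) has Igfbp3 (-1.70).

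The mean of the bacterial control transcripts lay above 0 on 6 arrays and below 0 on 6. Centring each probe set on its median brings about such a split. Arrays next to the cut were close, at 0.065 in casein pool 3 and -0.0907 in casein plus E2 pool 2, and casein pool 2 stood at 1.11. The changes with E2 were recomputed within each side. The side above 0 held 2 E2 samples and 4 without, and the side below 0 held 3 and 2, with diets unbalanced. No vehicle-treated casein-fed pool lay on the side below 0. The genes were chosen on these same arrays, so the values only describe them. Grifin changed by -3.01 on the side above 0 and by -1.71 on the side below 0, Kazald1 by -1.69 and -0.77, and Hey2 by -1.22 and -0.65, while Pcdh20 changed by -1.33 and -1.34. The falls of Cpa1, Retsat, Cpxm2 and Mlip were also larger on the side above 0. Gp2 went the other way, with -1.73 on the side above 0 and -2.44 on the side below 0. Scn7a changed by -0.71 and -0.45, where its change within soy-fed rats was 0.03.

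Hey2 responds to Notch signalling, whose DNA-binding partner Rbpj recognises the letters TGGGAA, and its promoter window is shown as the only one among the 10 of a known Notch target. The window lies at chr1:28640850-28641149 (GRCr8, plus strand, RefSeq), and capitals mark TGGGAA or its reverse complement TTCCCA.
Hey2: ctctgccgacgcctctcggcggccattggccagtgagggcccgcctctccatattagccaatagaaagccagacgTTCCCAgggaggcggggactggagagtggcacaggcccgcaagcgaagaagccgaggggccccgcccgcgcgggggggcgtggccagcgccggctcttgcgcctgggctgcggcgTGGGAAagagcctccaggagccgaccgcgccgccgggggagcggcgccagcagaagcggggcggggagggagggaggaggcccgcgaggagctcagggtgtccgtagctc
The matches began at -175 and -60 from the start of the gene. The same letters were in 5 of the 9 windows found, those of Gp2, Retsat, Scn7a, Kazald1 and Hey2, against 25.7% of all windows. The Hey2 window had a GC content of 73.3% and 32 CG pairs, against medians of 51.7% and 7 over all windows.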

How the data were processed

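The deposited values were 1 table of log2 values for 31099 probe sets on 12 arrays, centred on the median of each probe set (largest absolute median 5e-07). The log base was read from the range of the values (widest 9.85), and every fold change rests on it. Per the submitters' processing notes the software was GCOS, from Affymetrix. How the authors summarised and normalized the arrays, and the version, is not stated in those notes or the labels. Probe sets with 1 gene in the platform annotation (20826) were averaged per gene to 14217 genes. Casein plus E2 pools 2 and 3 were averaged after their near identity was known. Groups and pool numbers came from the titles.

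The 4 group means were fitted with limma 3.58.1 in R 4.3.3 to 11 samples (7 residual degrees of freedom, eBayes without a trend, no filter, since centred values carry no level). Tests were two-sided, with Benjamini-Hochberg adjusted p over all genes and a threshold of 0.05. Errors are standard errors of the fit. The members, gene lists and tests were chosen with earlier results of these data known. The named genes were the 10, the called relatives of each family (up to 3 each way, otherwise the gene of smallest p) and the 3 genes most like each; Cel was named after its values were seen. List scores are means of genes scaled to mean 0 and SD 1. The code was tested on simulated data, where it recovered 89% of 100 genes moved by 1 log2 unit between diets and 97% of those moved by 2, among 14217 genes with independent noise. The moved genes were drawn at random, so these percentages do not give the power for the 10 genes. The spread of the 10 between replicates ran from 0.33 for Hey2 to 1.04 for Gp2. The main fit did not pair samples by pool number (r of deviations -0.42 to 0.46 over 18 same-numbered pairs). Pairs of different number were not compared, so whether the numbers pair the samples was not tested. Promoter windows are from RefSeq (GRCr8).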

Additional observations from a re-analysis of the deposited data

How the results depend on the processing

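The results were recomputed under 22 alternatives: quantile normalization, median centring, the probe set of largest SD, 12 separate arrays, the same with a replicate block, only the groups of the contrast, array weights, a variance trend, the spike-in split as a term, casein pool 2 and soy pool 2 left out together, and each array left out in turn. In every one, 0 of the 10 genes passed in the 4 diet and interaction comparisons (smallest adjusted p = 0.0872, for Hey2 without E2 under array weights). The median change with E2 of the 10 genes stayed within the spread between replicates. With the replicate block it was -1.69 in casein-fed and -1.41 in soy-fed rats, and in the diet and interaction comparisons the block changed no call of the 10 genes. Of 660 changes with E2 4 turned sign, all of Scn7a in soy-fed rats, and of 880 differences between diets or interactions 39 did, none of them called. The relatives called for E2 averaged over diets were 33 with array weights and 2 without casein pool 2 and soy pool 2, against 21, and between 6 and 30 with 1 array left out. The cause was not tested. Signal over background cannot be judged from centred values.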

Other observations

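Genes of nerve sheaths and nerves moved both ways with E2. Averaged over the diets, 4 of 12 genes of that list were called lower. The calcium-binding S100b was lower by 1.27 and the myelin gene Mbp by 0.87 on the log2 scale. The growth cone gene Gap43 was lower by 0.81 and the myelin gene Prx by 0.56. A further 4 were called higher, Sox10 by 1.34, Egr2 by 0.83, Gfra3 by 0.77 and the ErbB receptor gene Erbb3 by 0.40. The adjusted p in limma lay between 0.0086 and 0.0487 for these 8 genes. Of 13 smooth muscle and pericyte genes 5 were called lower, Cspg4 (1.20 lower), Mcam (1.04 lower) and Rgs5 (1.01 lower) among them. The others were the potassium channel subunit genes Abcc9 (0.75 lower) and Kcnj8 (0.68 lower). The smooth muscle genes Cnn1, Acta2, Myh11 and Tagln of the same list lay above 0, at 0.59, 0.48, 0.41 and 0.17. None of the list was called higher, and its median was -0.12, so the list as a whole did not move 1 way. With 1 array left out the nerve list had 2 to 5 genes lower and 0 to 4 higher, with 0 higher without casein plus E2 pool 1, and 2 to 5 smooth muscle and pericyte genes were lower. Without casein pool 2 and soy pool 2 together the nerve list had 0 called and the smooth muscle and pericyte list 1.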
